A study of Mus musculus with 100 samples.

Results

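The leukocyte beta-2 integrin genes Itgam, Itgad, Itgax, Itgal and Itgb2 and the ligand genes Icam1 and Vcam1 were followed in mouse knee joints after anterior cruciate ligament injury. The members were taken by gene symbol from the deposited count table, and all 7 were found among 17310 genes. Knee joints came from mice of the strains MRL/MpJ, which heals tissue unusually well, C57BL/6, a common laboratory strain, and STR/ort, which develops osteoarthritis with age. No strain carried a transgene or an engineered deletion. The labelled age was 10 weeks, which for the loaded mice was the age at loading. In the injured groups the right knee was loaded once by tibial compression until the ligament ruptured, and the contralateral knee of the loaded mice was the uninjured joint. Joints were taken 1-day, 1-week or 2-weeks after loading, and knees of unloaded mice formed the 0-day group. Each strain had 4 libraries at 0-day and 5 in each later group, except that the uninjured MRL/MpJ and STR/ort joints at 1-week had 4, which gave 21 groups and 100 libraries. The 1-week and earlier libraries carried the label of batch 1 and the 2-weeks libraries that of batch 2, so time and batch cannot be told apart there. The labels name the same mouse for both joints only at 2-weeks, and the sources used here do not say which other libraries shared a mouse.

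Beta-2 integrins are adhesion receptors of leukocytes in which 1 of several alpha chains pairs with the common beta chain CD18, the product of Itgb2. Itgal gives LFA-1 (CD11a/CD18), which lymphocytes and other leukocytes use to bind ICAM-1. Itgam gives Mac-1 (CD11b/CD18) of neutrophils, monocytes and macrophages, Itgax gives CD11c/CD18 of dendritic cells and some macrophages, and Itgad gives CD11d/CD18, found on macrophage subsets of spleen and marrow. ICAM-1, the product of Icam1, rises on inflamed endothelium and is bound by LFA-1 and Mac-1. VCAM-1, the product of Vcam1, is bound mainly by the beta-1 integrin VLA-4 on leukocytes, is reported as a ligand of CD11d/CD18, and is also made by marrow stromal cells and macrophages.

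The 4 alpha chain genes lie on chromosome 7 of the mouse assembly GRCm38.p6. Itgal spans 7:127296139-127335137, and 727502 bases separate it from a cluster of the other alpha chain genes. In that cluster Itgam spans 7:128062640-128118491, Itgax 7:128129526-128150657 and Itgad 7:128173933-128205504, with 11034 bases between Itgam and Itgax and 23275 bases between Itgax and Itgad. Itgb2 lies at 10:77530329-77565708, Icam1 at 9:21015940-21028814 and Vcam1 at 3:116110020-116129688. The annotated span of Itgad overlaps Gm39091, 4931431B13Rik and, by 70 bases, the muscle gene Cox6a2, and whether the counting used strand is not stated in the sources used here. Cox6a2 was at 277 to 588 CPM (counts scaled to a common library size) in the 0-day STR/ort joints, its highest group, and at 41.3 to 90.9 CPM in the injured STR/ort joints at 1-week, its lowest. Itgad was below both other strains in each of these groups, and the part of shared reads in its values was not tested.

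RefSeq promoter sequences matched 3 of the 7 members, and the 250 bases before the listed start are shown because Itgam and Itgax are neighbours whose strain differences went in opposite directions and Icam1 was the ligand with higher levels after injury at 1-day. Capitals mark matches, on either strand, to GAGGAA, the core bound by the myeloid factor PU.1, and to GGGCGG, the Sp1 box. All 3 sequences are given 5′ to 3′ on the plus strand, from chr7:128062390-128062639 for Itgam, chr7:128129300-128129549 for Itgax and chr9:21015690-21015939 for Icam1. The start listed for Itgax lies inside the annotated gene, so the window ends within it, while those of Itgam and Icam1 end right before the gene.
Itgam: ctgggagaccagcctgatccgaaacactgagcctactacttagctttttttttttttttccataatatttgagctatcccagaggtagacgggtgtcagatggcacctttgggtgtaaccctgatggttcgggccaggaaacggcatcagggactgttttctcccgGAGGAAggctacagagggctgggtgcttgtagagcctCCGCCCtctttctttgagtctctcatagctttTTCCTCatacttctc
Itgax: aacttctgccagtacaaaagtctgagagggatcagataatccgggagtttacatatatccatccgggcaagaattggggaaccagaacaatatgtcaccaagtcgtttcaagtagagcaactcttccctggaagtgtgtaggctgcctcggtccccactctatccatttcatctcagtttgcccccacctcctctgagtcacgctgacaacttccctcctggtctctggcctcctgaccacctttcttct
Icam1: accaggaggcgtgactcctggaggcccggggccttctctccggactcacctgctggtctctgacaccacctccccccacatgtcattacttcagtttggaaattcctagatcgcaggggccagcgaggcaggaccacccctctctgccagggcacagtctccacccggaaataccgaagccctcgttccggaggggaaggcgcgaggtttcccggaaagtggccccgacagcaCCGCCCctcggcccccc

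The Itgam window held GAGGAA at -84, its reverse complement at -15 and the reverse complement of GGGCGG at -47, counted from the listed start. The Icam1 window held the reverse complement of GGGCGG at -17, and the Itgax window held neither motif. Neither motif is rare, since 23.3% of the 32851 promoter windows of this length held GAGGAA and 32.7% held GGGCGG. A pattern of the transcription factor NF-kB was also searched, and 7.25% of these windows held it. It was not found in the windows shown, and other forms of that site were not searched.

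The libraries held 6182016 to 20986027 counts, with a median of 10582591.5, and no member was at 0 in any library. The lowest count of a member in a library was 17, for Itgad, and the lowest median count was 92, for Itgax, against 121 for Itgad, so both carry more counting error than the other members. The joints were ground whole with their marrow and traces of muscle, and the markers of neutrophils, monocytes, endothelium, cartilage and muscle were all detected. In such bulk tissue, fewer cells of a type and less RNA per cell cannot be told apart. One library, the injured MRL/MpJ joint of replicate 4 at 2-weeks, had the highest summed level of 6 muscle markers, 99436 CPM, and calls that change without it are given both ways.

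Per kilobase of annotated exon, the beta chain Itgb2 was the most abundant member, at a mean of 103 CPM per kb over the 21 groups. Itgam followed at 89.6 and the ligand Vcam1 at 49.9 CPM per kb. The other alpha chains were far lower, at 14.3 for Itgal, 2.75 for Itgad and 2.16 for Itgax, and Icam1 stood at 8.22 CPM per kb. Itgam was therefore the predominant alpha chain transcript on this scale in whole joints rich in marrow cells.

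**Figure D1:**
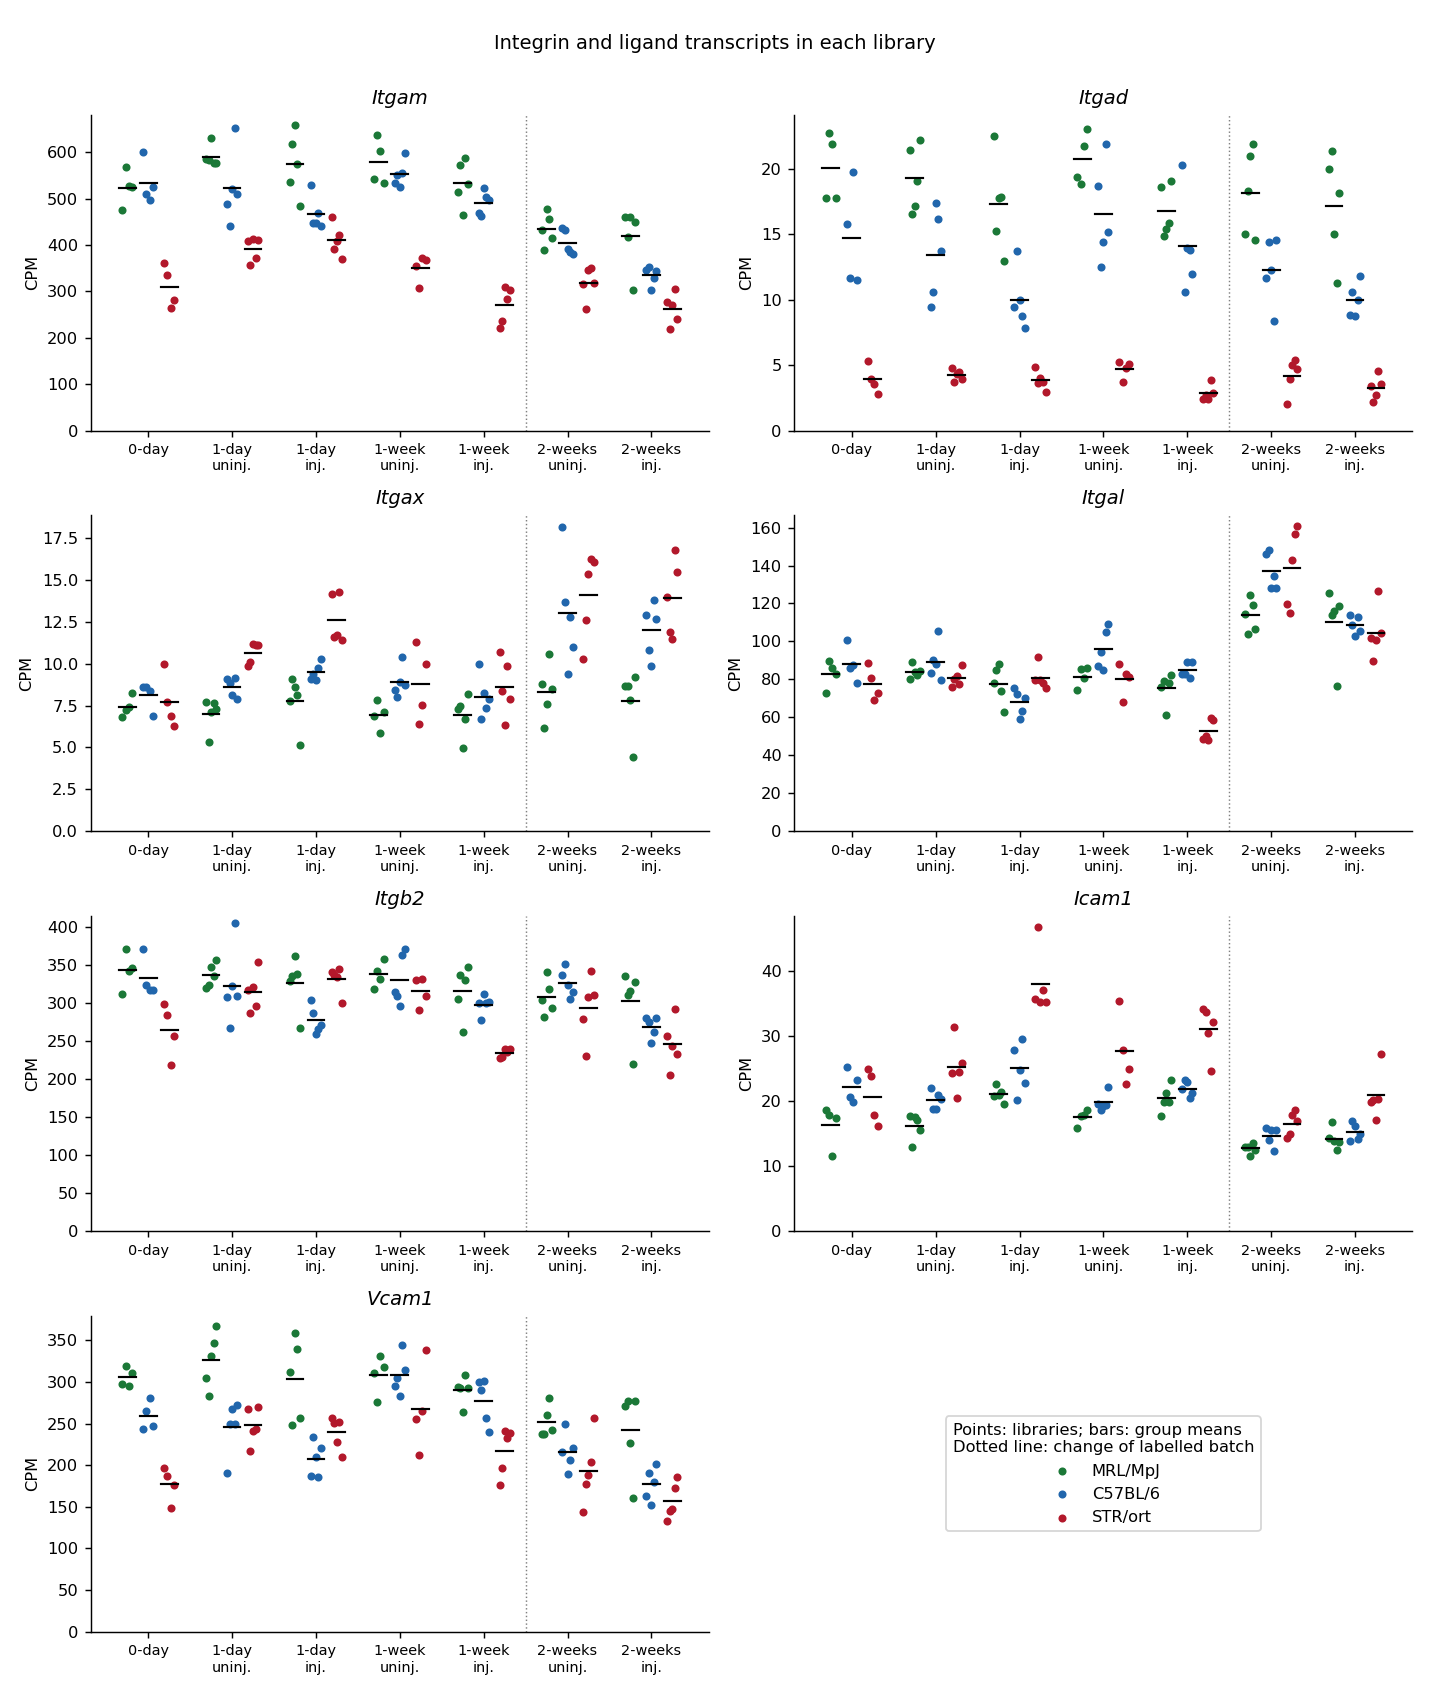
Level of each member in CPM (y axis, 1 panel per gene) in every library, by time and joint (x axis) and strain (colour), with a dotted line where the labelled batch changes. Itgad lies between 2.00 and 5.38 CPM in the STR/ort libraries, under every MRL/MpJ and C57BL/6 library, and Icam1 is highest in injured STR/ort joints at 1-day.

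The members differed in how far their group means spread, as the plot of levels by state shows. Itgad ranged most, 7.25-fold, from 20.8 ± 1.99 CPM (SD, n = 4) in uninjured MRL/MpJ joints at 1-week to 2.87 ± 0.592 CPM (SD, n = 5) in injured STR/ort joints at 1-week. Itgb2 ranged least, 1.46-fold, from 343 ± 23.9 CPM (SD, n = 4) at 0-day in MRL/MpJ to 234 ± 5.80 CPM (SD, n = 5) in injured STR/ort joints at 1-week. The common beta chain was thus steadier across groups than any of its alpha chains. Itgam ranged 2.25-fold, from 590.3 CPM in uninjured MRL/MpJ joints at 1-day to 262 CPM in injured STR/ort joints at 2-weeks. Itgax ranged 2.05-fold, from 14.2 CPM in uninjured STR/ort joints at 2-weeks to 6.92 CPM in MRL/MpJ joints at 1-week. Itgal ranged 2.63-fold, from 139 CPM in uninjured STR/ort joints at 2-weeks to 52.9 CPM in injured STR/ort joints at 1-week, so STR/ort held both ends of its order. Of the ligands, Icam1 ranged 2.99-fold, from 38.0 CPM in injured STR/ort joints at 1-day to 12.7 CPM in uninjured MRL/MpJ joints at 2-weeks. Vcam1 ranged 2.08-fold, from 327 CPM in uninjured MRL/MpJ joints at 1-day to 157 CPM in injured STR/ort joints at 2-weeks. When the 21 groups were ordered by mean, 1 of 20 neighbouring pairs did not overlap for each of Itgad, Itgal and Icam1, and for the other members every pair of neighbours overlapped. These counts were not set against those of all genes. The ends of these orders cross the batch change for Itgax, Itgal, Icam1, Vcam1 and Itgam.

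A difference was called when the adjusted p of edgeR's quasi-likelihood test was under 0.05, with Benjamini-Hochberg adjustment over all genes, and the fold was over 1.5. Log2 differences are given with their SE. At 0-day, 6 of 21 member tests between strains were called and all were lower in STR/ort, which concerned Itgad, Itgam and Vcam1 against both other strains. The share of all genes called was 14.8% between STR/ort and MRL/MpJ, 13.8% between STR/ort and C57BL/6 and 15.9% between C57BL/6 and MRL/MpJ, where no member was called. The median log2 difference of the 7 members between STR/ort and MRL/MpJ at 0-day was -0.37, against 0.01 over all genes. At the later times the shares of all genes called between STR/ort and MRL/MpJ were 20.3%, 29.5% and 18.9% in injured joints at 1-day, 1-week and then 2-weeks, and 22.6%, 24.4% and 13.8% in uninjured joints. Between STR/ort and C57BL/6 they were 12.4%, 25.1% and 10.4% in injured and 10.5%, 22.2% and 9.78% in uninjured joints. Between C57BL/6 and MRL/MpJ they were 16.3%, 9.47% and 11.5% in injured and 14.8%, 8.53% and 9.83% in uninjured joints.

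Itgad, the gene of CD11d, separated STR/ort from both other strains in every state. At 0-day it was at 17.8, 22.8, 21.9 and 17.8 CPM in MRL/MpJ, at 15.8, 11.7, 19.8 and 11.5 CPM in C57BL/6 and at 5.34, 3.91, 3.55 and 2.82 CPM in STR/ort. It was at 18.6, 14.9, 15.4, 15.9 and 19.1 CPM in injured MRL/MpJ joints and at 20.3, 10.6, 14, 13.8 and 12.0 CPM in injured C57BL/6 joints at 1-week. The injured STR/ort joints of that time were at 2.44, 2.74, 2.41, 3.86 and 2.89 CPM. No STR/ort library reached the lowest library of either other strain in the same state. The log2 difference of STR/ort from MRL/MpJ was -2.33 ± 0.20 at 0-day (adjusted p = 5.52e-08) and lay between -2.56 and -2.09 over 7 states, all of them called. From C57BL/6 it lay between -2.30 and -1.36 over the same 7 states, again all called. None of these 14 calls was lost under any alternative normalization or when any 1 library was left out. Between C57BL/6 and MRL/MpJ, Itgad was called in 2 of 7 states, lower in C57BL/6 in injured joints at 1-day (-0.79 ± 0.16, adjusted p = 0.000158) and at 2-weeks (-0.77 ± 0.18, adjusted p = 0.00107), and the libraries of the groups overlapped in both. The same difference in uninjured joints at 2-weeks was -0.58, at the fold threshold, and was called under 3 scaling alternatives (-0.92 to -0.60) and without any 1 of 4 libraries (-0.65 to -0.64). In uninjured joints at 1-day it was -0.47 and was called with 1 (-0.75) or 2 (-0.66) RUVg factors.

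Itgam, the gene of CD11b, was also lower in STR/ort, by a smaller amount and not in every state. At 0-day it was at 475, 567, 528 and 525 CPM in MRL/MpJ, at 599.6, 511, 496 and 525 CPM in C57BL/6 and at 361, 335, 264 and 281 CPM in STR/ort. The highest STR/ort library was below the lowest library of the other strains, and the log2 difference was -0.75 ± 0.10 from MRL/MpJ (adjusted p = 9.86e-06) and -0.82 ± 0.10 from C57BL/6 (adjusted p = 4.71e-06). The injured joints at 1-week were at 514, 573, 465, 588 and 531 CPM in MRL/MpJ, at 470.0, 462, 522, 503 and 497 CPM in C57BL/6 and at 222, 237, 308, 283 and 304 CPM in STR/ort. These groups did not overlap either, and this was where the distance of STR/ort was largest, at -0.99 ± 0.09 from MRL/MpJ (adjusted p = 1.84e-10) and -0.87 ± 0.09 from C57BL/6 (adjusted p = 3.97e-09). Uninjured joints at 1-week differed by -0.70 ± 0.10 from MRL/MpJ (adjusted p = 1.18e-06) and by -0.64 ± 0.09 from C57BL/6 (adjusted p = 2.59e-06), and the second call was lost without replicate 2 of the uninjured STR/ort joints (-0.58). At 1-day no strain difference of Itgam passed the fold threshold, with -0.47 against MRL/MpJ in injured joints and -0.55 in uninjured joints, though both were called with housekeeping gene scaling (-0.66 each). Itgam at 2-weeks was lower in injured STR/ort than in injured MRL/MpJ joints by -0.67 ± 0.10 (adjusted p = 1.19e-06), with overlap of the groups at the MRL/MpJ library rich in muscle markers. The 0-day call against MRL/MpJ was lost with 2 factors estimated from housekeeping genes (RUVg, -0.56), and the 2-weeks call with these (-0.49) and with scaling to the same genes (-0.58).

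Itgax, the gene of CD11c, went the other way from its 2 neighbours on the chromosome, and its calls were at 1-day and 2-weeks. In injured joints at 1-day, it was at 7.80, 9.11, 8.64, 8.14 and 5.12 CPM in MRL/MpJ and at 14.2, 11.6, 11.7, 14.3 and 11.4 CPM in STR/ort, with no overlap. This difference was 0.71 ± 0.11 (adjusted p = 5.32e-06), and in the uninjured joints of that time it was 0.65 ± 0.12 (adjusted p = 2.85e-05), falling to 0.56 and out of the call without replicate 2 of the uninjured MRL/MpJ joints. The injured joints at 2-weeks were at 8.68, 8.70, 7.82, 4.41 and 9.20 CPM in MRL/MpJ, at 12.9, 10.8, 9.89, 13.8 and 12.7 CPM in C57BL/6 and at 14, 11.9, 11.5, 16.8 and 15.5 CPM in STR/ort. MRL/MpJ was below both other strains there, with 0.86 ± 0.17 for STR/ort (adjusted p = 0.000155) and 0.65 ± 0.18 for C57BL/6 (adjusted p = 0.00576). The library rich in muscle markers is the lowest of these, and without it the C57BL/6 difference was 0.47 (adjusted p = 0.0225) and no longer passed the fold threshold, while the STR/ort call remained. In uninjured joints at 2-weeks the differences were 0.76 ± 0.18 for STR/ort (adjusted p = 0.00107) and 0.62 ± 0.18 for C57BL/6 (adjusted p = 0.0104). The latter lost its call without replicate 2 (0.54) or 3 (0.58) of the uninjured MRL/MpJ joints or replicate 1 of the uninjured C57BL/6 joints (0.47), and with 1 (0.35) or 2 (0.42) RUVg factors. The injured C57BL/6 call was also lost with 1 RUVg factor (0.50). At 0-day Itgax was at 7.42 ± 0.626 CPM in MRL/MpJ, 8.12 ± 0.836 in C57BL/6 and 7.71 ± 1.63 in STR/ort (SD, n = 4), and no strain difference was called then or at 1-week. The 5 dendritic cell markers of injured joints at 2-weeks summed to 23.0 to 28.8 CPM in STR/ort, 22.6 to 32.2 in MRL/MpJ and 29.4 to 36.5 in C57BL/6. In the same order, the 6 B cell markers summed to 101 to 218, 61.4 to 135 and 243 to 286 CPM. In injured joints at 1-day the B cell sums were 177 to 287 CPM in STR/ort and 96.6 to 115 CPM in MRL/MpJ. The part of these lists in the Itgax differences was not tested.

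Itgal, the gene of the LFA-1 alpha chain, was called between strains in 1 of 21 tests. The call was in injured joints at 1-week, at 82.8, 83.0, 89.0, 80.9 and 88.9 CPM in C57BL/6 and at 48.5, 50.1, 47.9, 59.5 and 58.5 CPM in STR/ort. These groups did not overlap and differed by -0.70 ± 0.09 (adjusted p = 1.16e-07). The STR/ort joints were also lower than the injured MRL/MpJ joints of that time, by -0.52 (adjusted p = 8.48e-06), under the fold threshold, and this was called with housekeeping gene scaling (-0.66), with 1 (-0.96) or 2 (-1.19) RUVg factors and without replicate 3 of the injured MRL/MpJ joints (-0.59). In uninjured joints at 1-week, the difference from C57BL/6, -0.25, was called with 1 (-0.64) or 2 (-0.72) RUVg factors, and that from MRL/MpJ, -0.00, with 2 (-0.68).

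Itgb2, which every one of these alpha chains needs to reach the cell surface, was called in no comparison with TMM scaling. At 0-day it was at 312, 371, 343 and 346 CPM in MRL/MpJ, at 371, 324, 317 and 318 CPM in C57BL/6 and at 299, 284, 219 and 257 CPM in STR/ort. STR/ort was the lowest strain, by -0.37 from each of the others, which is under the fold threshold. In injured joints at 1-week it was lower in STR/ort than in MRL/MpJ by -0.45, and this was called with housekeeping gene scaling (-0.59) and with 1 (-0.81) or 2 (-0.98) RUVg factors. The difference from C57BL/6 there, -0.36, was called with 1 (-0.68) or 2 (-0.77) RUVg factors, and the one from MRL/MpJ in uninjured joints, -0.07, with 2 (-0.62). Ptprc, the gene of the leukocyte surface protein CD45, moved like it at 0-day, by -0.36 from MRL/MpJ and -0.41 from C57BL/6.

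**Figure D2:**
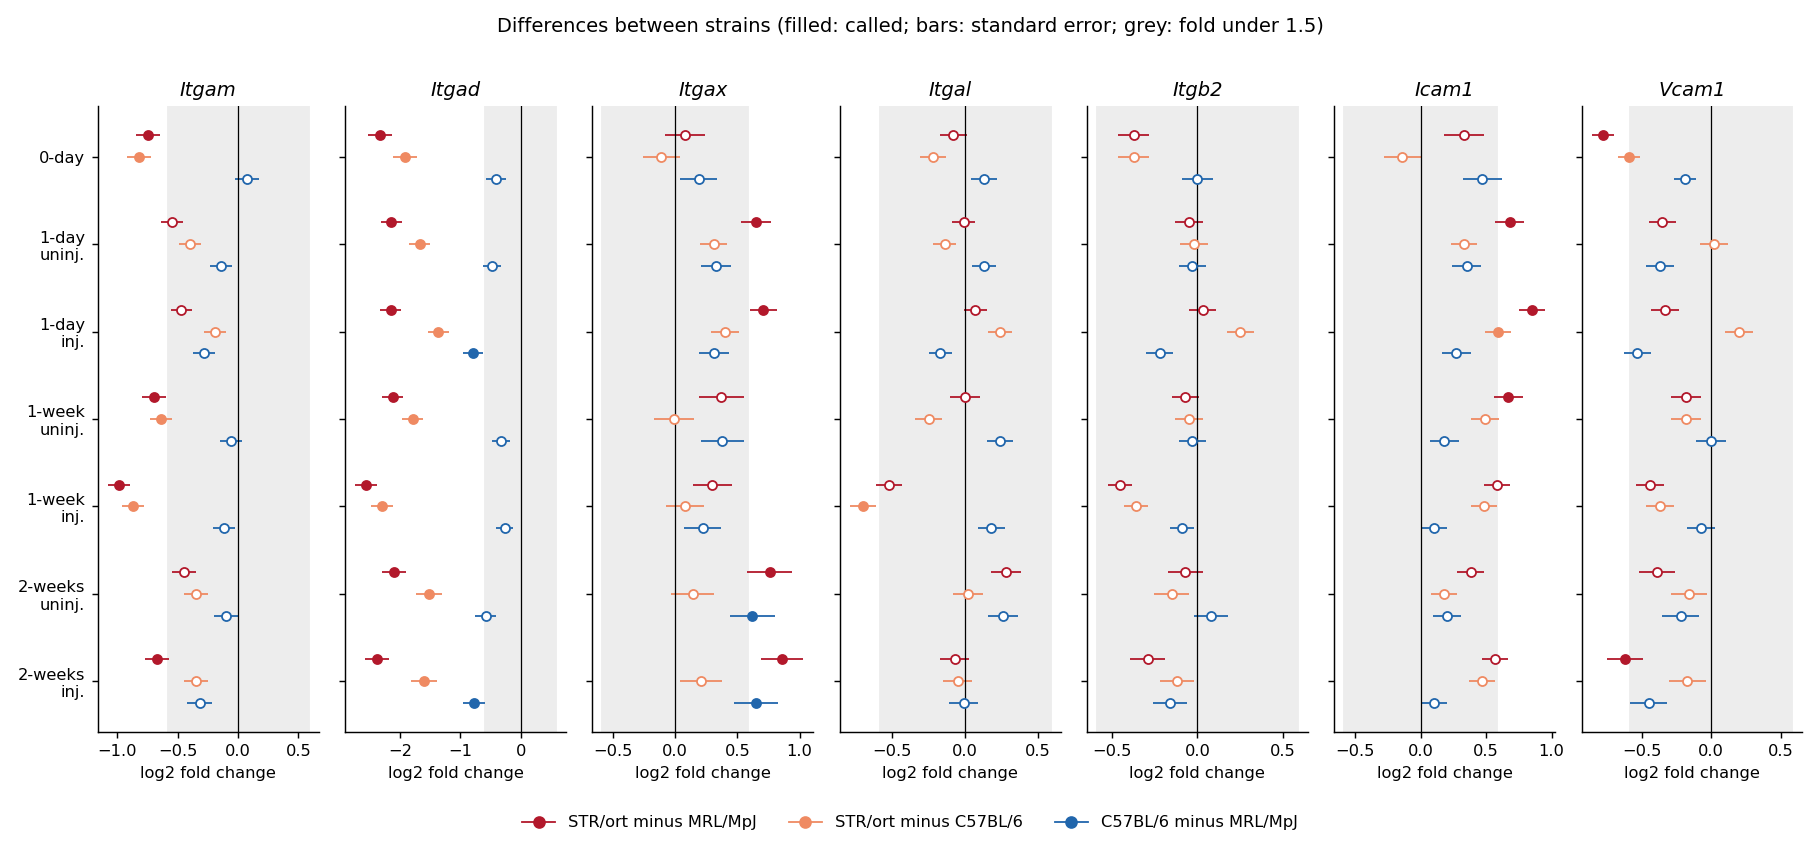
Log2 differences between strains ± SE (x axis) for each member (panels) in every state (y axis), with filled points for called differences and a grey band for folds under 1.5. Itgad of STR/ort lies between -2.56 and -1.36 in all states, while the calls of Itgax and Icam1 are on the higher side.

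Over the 3 times, 18 of 63 member tests between strains were called within injured joints, 5 higher and 13 lower, against 17.1% of all gene tests, 9.10% higher and 7.98% lower. Within uninjured contralateral joints 13 of 63 were called, 5 higher and 8 lower, against 15.2% of all gene tests, 8.67% higher and 6.49% lower. Itgad supplied 8 of the 13 lower calls in injured joints and 6 of the 8 in uninjured joints, the other lower calls being those of Itgam, Itgal and Vcam1. The higher calls were those of Itgax and Icam1. The comparisons between strains share groups, so their counts are not independent of each other.

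The ligand Vcam1 was lowest in STR/ort at 0-day, at 197, 187, 148 and 176 CPM against 297, 319, 295 and 311 CPM in MRL/MpJ and 243, 265, 281 and 248 CPM in C57BL/6. STR/ort overlapped neither of the other strains and differed by -0.78 ± 0.08 from MRL/MpJ (adjusted p = 1.04e-06) and by -0.59 ± 0.08 from C57BL/6 (adjusted p = 3.59e-05). The difference from C57BL/6 stood at the fold threshold and lost its call without replicate 2 (-0.57) or 3 (-0.55) of C57BL/6 or replicate 3 (-0.51) or 4 (-0.58) of STR/ort. It was also lost with DESeq2 (-0.55), RLE size factors (-0.55), filterByExpr (-0.58), 1 RUVg factor (-0.43) and a fit limited to both groups (-0.54). At 2-weeks in injured joints, Vcam1 was at 271, 277, 226, 160.3 and 277 CPM in MRL/MpJ and at 133, 145, 148, 173 and 186 CPM in STR/ort, a difference of -0.62 ± 0.13 (adjusted p = 0.000228) with overlap at the same MRL/MpJ library. That call was lost without replicate 1 (-0.58), 2 (-0.57) or 5 (-0.57) of the injured MRL/MpJ joints or replicate 1 (-0.57) of the injured STR/ort joints, and with housekeeping gene scaling (-0.53). Between injured C57BL/6 and MRL/MpJ joints at 2-weeks, Vcam1 differed by -0.45, under the fold threshold, and was called at -0.59 (adjusted p = 0.000146) without the library rich in muscle markers. At 1-day and 1-week the Vcam1 difference of STR/ort from MRL/MpJ depended on the scaling. It was under the fold threshold with TMM factors, at -0.33 in injured and -0.35 in uninjured joints at 1-day, and was called with 1 RUVg factor at -0.88 in both. C57BL/6 differed from MRL/MpJ at 1-day by -0.53 in injured and -0.37 in uninjured joints, and these were called with 1 RUVg factor at -0.75 and -0.64. The injured value was also called with housekeeping gene scaling (-0.60) and without replicate 5 of the injured MRL/MpJ joints (-0.59). At 1-week, STR/ort differed from MRL/MpJ in injured joints by -0.44 with TMM factors, called at -1.11 with 2 RUVg factors.

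The ligand Icam1 was higher in STR/ort after loading, in the joints of both knees. At 1-day the injured joints held 20.8, 22.6, 21, 21.4 and 19.5 CPM in MRL/MpJ, 27.8, 20.2, 24.8, 29.5 and 22.7 CPM in C57BL/6 and 35.7, 46.7, 35.2, 37.1 and 35.2 CPM in STR/ort. Every STR/ort library was above all others of that time and joint. STR/ort exceeded MRL/MpJ by 0.85 ± 0.10 (adjusted p = 6.92e-08) and C57BL/6 by 0.59 ± 0.10 (adjusted p = 5.47e-05). The second difference stood at the fold threshold and fell under it without replicate 2 (0.53), 3 (0.58) or 5 (0.55) of the injured C57BL/6 joints or replicate 2 (0.51) of the injured STR/ort joints. In uninjured joints STR/ort exceeded MRL/MpJ by 0.68 ± 0.11 at 1-day (adjusted p = 4.28e-06) and by 0.67 ± 0.11 at 1-week (adjusted p = 1.96e-05), the latter falling to 0.53 without replicate 1 of the uninjured STR/ort joints. The injured joints of STR/ort stood above those of MRL/MpJ by 0.58 at 1-week and 0.57 at 2-weeks, at the fold threshold, and passed it under some settings, among them DESeq2 at 1-week (0.60) and housekeeping gene scaling at 2-weeks (0.65). At 0-day Icam1 was at 16.4 ± 3.25 CPM in MRL/MpJ, 22.2 ± 2.53 in C57BL/6 and 20.7 ± 4.42 in STR/ort (SD, n = 4), and no difference was called. Both calls in uninjured joints, the one against C57BL/6 in injured joints at 1-day and those of Itgax at 1-day were lost when the libraries were scaled to 25 housekeeping genes or fitted with factors estimated from them. The uninjured Icam1 difference at 1-day stayed at 0.57 to 0.58 and crossed the fold threshold only, while that at 1-week fell to 0.33 (adjusted p = 0.463) with 2 RUVg factors. The difference from C57BL/6 fell to between 0.47 and 0.52, and the Itgax differences at 1-day to between 0.45 and 0.53.

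The level of an alpha chain relative to its beta chain in the same library does not depend on how libraries are scaled. Itgad stood at 5.29% to 6.16% of the Itgb2 level in the MRL/MpJ groups, at 3.58% to 4.99% in the C57BL/6 groups and at 1.16% to 1.49% in the STR/ort groups, as group means of CPM ratios. In injured joints at 1-week the STR/ort libraries spread from 1.0% to 1.64% and the MRL/MpJ libraries from 4.43% to 6.09%, so the strains stayed apart when set against the shared chain. Itgam stood at 153% of Itgb2 in MRL/MpJ, 160.2% in C57BL/6 and 117% in STR/ort at 0-day. These percents are of CPM and do not allow for exon length. In CPM per kb at 0-day, Itgam was below Itgb2 in each strain. The means were 106.3 against 115.5 in MRL/MpJ, 108.2 against 111.9 in C57BL/6 and 63.0 against 89.1 in STR/ort. Itgax had the opposite order, with group means from 2.05% to 2.71% in MRL/MpJ and from 2.78% to 5.67% in STR/ort.

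Of 144 exact two-sided permutation tests on the log2 ratio, 48 had a Benjamini-Hochberg adjusted p under 0.05. With 5 against 5 libraries the smallest possible p was 0.00794, and with 4 against 4 it was 0.0286, and none of the latter passed after adjustment over the 144 tests (adjusted p of 0.0633 at best). These include the 0-day tests and those between uninjured STR/ort and MRL/MpJ joints at 1-week, where the Itgad ratio differed by -2.03 without overlap. For Itgad 14 of 36 tests passed, 11 with STR/ort lower than another strain and 3 with C57BL/6 lower than MRL/MpJ, and STR/ort was below MRL/MpJ by -2.16 on the log2 scale in injured joints at 1-day and by -2.10 at 1-week (both p = 0.00794 by the exact permutation test, adjusted p = 0.0272). For Itgam, 13 tests passed as lower and 1 as higher, and in injured joints at 1-week the log2 ratio differed by -0.56 between STR/ort and MRL/MpJ and by -0.52 between STR/ort and C57BL/6, both with the same exact p. For Itgax, 10 tests passed and all were higher, the largest being 1.16 between STR/ort and MRL/MpJ in injured joints at 2-weeks. Itgal passed in 6 tests as higher and 4 as lower, among them 0.35 between STR/ort and MRL/MpJ in uninjured joints at 2-weeks and -0.34 between STR/ort and C57BL/6 in injured joints at 1-week. With Ptprc in place of Itgb2, an alternative added after the data were seen, 36 tests passed, of which 13 were Itgad as lower and 11 Itgam as lower. Against Ptprc, the Itgam difference in injured joints at 1-week was -0.37 between STR/ort and MRL/MpJ (exact p = 0.00794, adjusted p = 0.0317), and between STR/ort and C57BL/6 it fell to -0.16 and did not pass (exact p = 0.0556, adjusted p = 0.135). The Itgal difference of -0.34 became 0.02 (exact p = 0.794, adjusted p = 0.866). Itgad of STR/ort, set against Ptprc, was lower than that of MRL/MpJ by -2.13 to -1.84 and than that of C57BL/6 by -1.57 to -1.36.

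Some marker lists moved with these strain differences and others did not. The summed level of 6 pan-leukocyte markers at 0-day was 1399 to 1757 CPM in STR/ort, 2003 to 2267 CPM in MRL/MpJ and 2017 to 2290 CPM in C57BL/6, and calls of lower level in STR/ort numbered 2 of the 6 against MRL/MpJ and 1 against C57BL/6. For 11 neutrophil markers the sums were 12749 to 15055 CPM in STR/ort, 15623 to 18716 CPM in MRL/MpJ and 14496 to 17761 CPM in C57BL/6. The 5 erythroid markers tested, read because marrow was in the samples, summed to 1733 to 1902 CPM in STR/ort, 3825 to 4689 CPM in MRL/MpJ and 2473 to 2935 CPM in C57BL/6, and all 5 were called as lower against MRL/MpJ. The sums of 10 monocyte and macrophage markers overlapped between strains at 0-day, at 1879 to 2566 CPM in STR/ort, 2461 to 2700 CPM in MRL/MpJ and 2477 to 2824 CPM in C57BL/6. Single markers of this list did not move together, with Cd14 called higher (2.03) and Mertk lower (-0.94) in STR/ort against MRL/MpJ. The 7 T cell markers summed to 28.3 to 32.9 CPM in STR/ort at 0-day, 67.6 to 77.3 CPM in MRL/MpJ and 39.0 to 43.6 CPM in C57BL/6, with 4 of 7 called as lower against MRL/MpJ and 3 against C57BL/6. For the injured joints at 1-week, the neutrophil sums were 8539 to 12127 CPM in STR/ort, 14201 to 18782 CPM in MRL/MpJ and 13058 to 14584 CPM in C57BL/6. The pan-leukocyte sums were 1171 to 1398, 1791 to 2238 and 1885 to 2161 CPM in the same order, and the T cell sums 20.9 to 29.7, 67.1 to 83.0 and 41.7 to 46.9 CPM, so STR/ort was below both strains without overlap for these 3 lists. The monocyte and macrophage sums of these joints were not lower in STR/ort, at 2524 to 3006 CPM against 2282 to 2736 CPM in MRL/MpJ and 2287 to 2564 CPM in C57BL/6. Within that list Cd14 was called higher in STR/ort (1.73 from MRL/MpJ and 1.37 from C57BL/6) and Ccr2 lower (-0.97 and -1.28). The 6 fibroblast markers summed to 34152 to 55655 CPM in STR/ort, 14019 to 16136 CPM in MRL/MpJ and 15076 to 22874 CPM in C57BL/6. In the same order, the 6 muscle markers were at 12211 to 26807, 38524 to 64481 and 24514 to 48220 CPM. The erythroid markers were at 742 to 2286, 3102.5 to 3860 and 2978 to 3896 CPM. The 6 B cell markers at 0-day summed to 153 to 217 CPM in STR/ort, above the 114 to 136 CPM of MRL/MpJ, with 4 of 6 called higher, and to 185.5 to 259.5 CPM in C57BL/6. No marker of these lists was at 0 in every library, and the part of the lists in the strain differences was not tested. In injured joints at 1-week, Ptprc was itself called lower in STR/ort, by -0.63 ± 0.09 from MRL/MpJ (adjusted p = 3.44e-07) and -0.72 ± 0.09 from C57BL/6 (adjusted p = 6.58e-08), beside -2.56 and -2.30 for Itgad and -0.99 and -0.87 for Itgam.

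Injury was read as the difference of injured from uninjured contralateral joints within a strain. In MRL/MpJ and in C57BL/6 no member was called at any time, where 2.10% and 4.79% of all gene tests over the 3 times were called. By time these shares were 2.02%, 3.13% and 1.16% in MRL/MpJ and 5.60%, 5.82% and 2.95% in C57BL/6. At an unadjusted p under 0.05 by edgeR, 2 of 21 member tests passed in MRL/MpJ and 9 of 21 in C57BL/6, and DESeq2 also called none in either strain. The shares above are of calls, so the counts at an unadjusted p have no share of all genes beside them. In STR/ort 2 of 21 tests were called, both lower at 1-week, where 9.21% of all genes were called, against 4.31% at 1-day, 4.66% at 2-weeks and 6.06% over the 3 times. Both calls of injury were alpha chains.

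Itgal in STR/ort at 1-week was at 87.9, 68.1, 83.0 and 81.1 CPM in uninjured joints and at 48.5, 50.1, 47.9, 59.5 and 58.5 CPM in injured joints. All 5 injured libraries were below all 4 uninjured ones, and the log2 difference was -0.60 ± 0.09 (adjusted p = 1.39e-05). It lay just past the fold threshold and fell under it without replicate 1 or 3 of the injured joints (-0.57 each), or replicate 1 (-0.56) or 3 (-0.58) of the uninjured joints, and with housekeeping gene scaling (-0.57). Itgad was at 5.28, 3.75, 4.77 and 5.07 CPM in uninjured and 2.44, 2.74, 2.41, 3.86 and 2.89 CPM in injured joints. One injured library reached into the uninjured range, and the difference was -0.72 ± 0.22 (adjusted p = 0.0163), which was lost with 2 RUVg factors (-0.55, adjusted p = 0.0858).

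Itgb2, Itgam and Vcam1 were also lower in these injured STR/ort joints, under the fold threshold. Itgb2 was at 331, 292, 332 and 309 CPM in uninjured and 228, 229.5, 240.1, 235 and 240.1 CPM in injured joints, with no overlap and a log2 difference of -0.44 ± 0.08 (adjusted p = 0.000113). Itgam differed by -0.38 (adjusted p = 0.00388) and Vcam1 by -0.31 (adjusted p = 0.0359). Icam1 (0.16, adjusted p = 0.299) and Itgax (-0.04, adjusted p = 0.895) did not pass the test. Ptprc differed by -0.43 ± 0.09 (adjusted p = 0.00076), from 352 ± 43.7 CPM (SD, n = 4) in uninjured to 262 ± 24.3 CPM (SD, n = 5) in injured joints. The median of the 7 members was -0.38, against -0.03 over all genes. Beside this, the 11 neutrophil markers summed to 8539 to 12127 CPM in injured and 13935 to 18629 CPM in uninjured STR/ort joints, with 5 of 11 called lower. The 6 pan-leukocyte markers summed to 1171 to 1398 CPM in injured and 1573 to 1894 CPM in uninjured joints, and the 5 NK cell markers to 15.3 to 24.5 CPM and 25.5 to 35.6 CPM, with 3 of 5 called lower. The 6 fibroblast markers went the other way, from 16900 to 34807 CPM in uninjured to 34152 to 55655 CPM in injured joints, with 4 of 6 called higher, and 8 endothelial markers summed to 353 to 434 CPM in uninjured and 478 to 617 CPM in injured joints, with 1 called higher. The part of these shifts in the member differences was not tested.

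**Figure D3:**
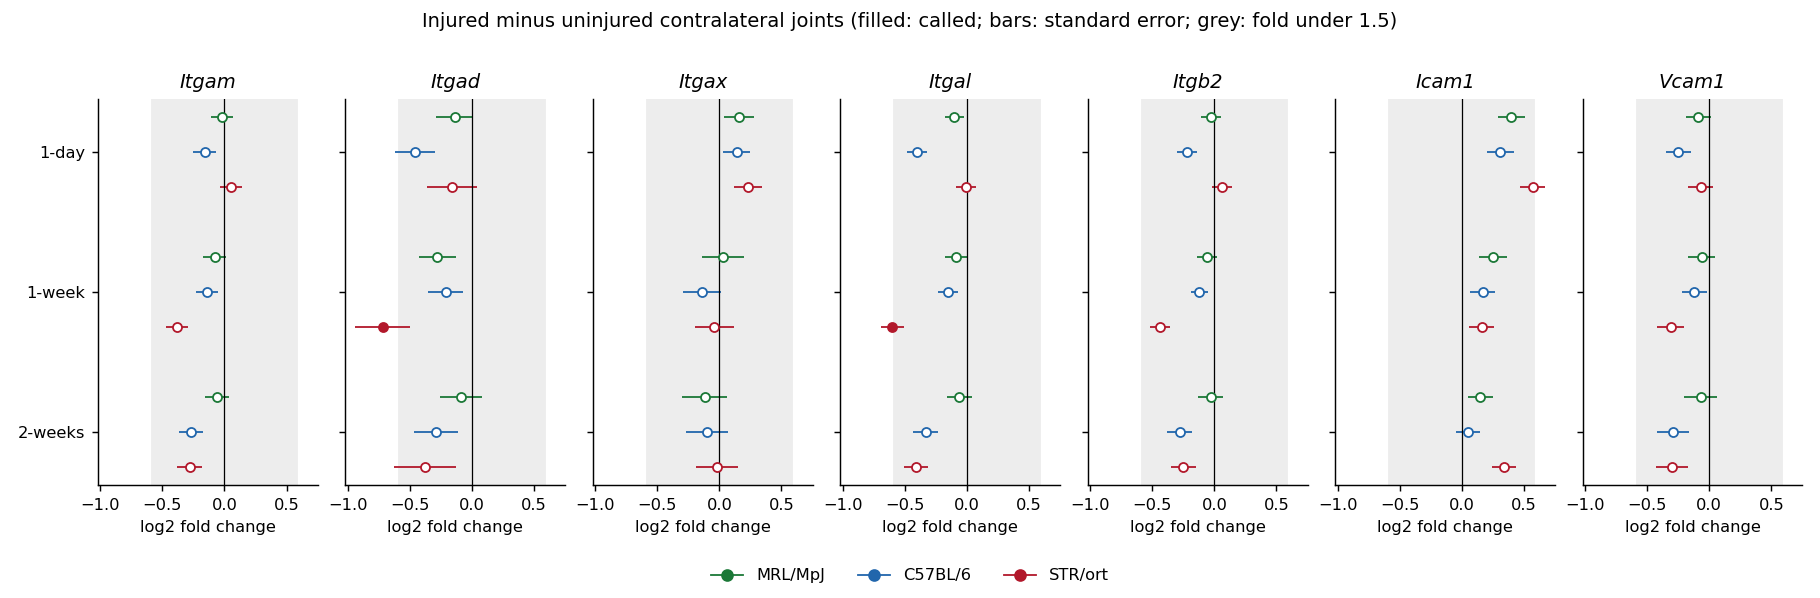
Log2 differences ± SE of injured from uninjured contralateral joints (x axis) for each member by time (y axis) and strain (colour), with filled points for called differences and a grey band for folds under 1.5. The called points are Itgal and Itgad of STR/ort at 1-week, and Icam1 is on the higher side in all strains at 1-day.

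Icam1, which inflammatory cytokines induce on endothelium, was higher in injured joints at 1-day in each strain, by less than the fold threshold. In MRL/MpJ the uninjured joints were at 17.7, 12.9, 17.6, 17.1 and 15.6 CPM and the injured at 20.8, 22.6, 21, 21.4 and 19.5 CPM, a log2 difference of 0.40 ± 0.11 (adjusted p = 0.0296). In C57BL/6 the uninjured joints were at 22.0, 18.8, 18.8, 21 and 20.3 CPM against the injured values given above, a difference of 0.31 ± 0.11 (adjusted p = 0.0349). In STR/ort the uninjured joints were at 24.3, 31.4, 20.4, 24.4 and 25.9 CPM, all below the injured ones, and the difference was 0.57 ± 0.10 (adjusted p = 0.000269). This value stood at the fold threshold and was called when only the compared groups were fitted (0.59) or without replicate 1 (0.59), 3 (0.60) or 5 (0.61) of the injured or replicate 2 (0.66) of the uninjured joints. The groups overlapped in C57BL/6 and were apart in MRL/MpJ and STR/ort. At 2-weeks, Icam1 in STR/ort was again higher, from 14.3, 15.0, 17.8, 18.6 and 16.9 CPM in uninjured to 19.9, 20.2, 17.1, 20.3 and 27.2 CPM in injured joints (0.34 ± 0.10, adjusted p = 0.0191). The 8 endothelial markers summed to 353 to 413 CPM in uninjured and 398 to 443 CPM in injured STR/ort joints at 1-day, and none of the 8 was called. The 6 fibroblast markers at 1-day summed to 6990 to 9314 CPM in uninjured and 9506 to 13092 CPM in injured MRL/MpJ joints. In C57BL/6 they summed to 10338 to 14893 and 15723 to 23977 CPM, and in STR/ort to 17374 to 23855 and 18068 to 21282 CPM. At 2-weeks the 8 endothelial markers summed to 439.8 to 465 CPM in uninjured and 514 to 548 CPM in injured STR/ort joints. Of these, 1 of 8 was called higher, Emcn (0.62, adjusted p = 6.07e-06). The part of these lists in the Icam1 differences was not tested.

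In C57BL/6, Itgal was lower in injured joints at 1-day, at 75.2, 72.5, 59.2, 63.1 and 70.2 CPM against 83.2, 90.1, 88.1, 106 and 79.8 CPM in uninjured joints, with no overlap and a difference of -0.40 ± 0.08 (adjusted p = 0.000577) that was under the fold threshold. Itgad in the same joints differed by -0.46 ± 0.16 (adjusted p = 0.0372), also under the threshold, and passed it without replicate 2 of the injured joints (-0.61). At 2-weeks, Itgal differed by -0.33 in C57BL/6 (adjusted p = 0.0428) and by -0.41 in STR/ort (adjusted p = 0.00664). Itgal was thus lower after injury in C57BL/6 at 1-day and 2-weeks and in STR/ort at 1-week and 2-weeks, while in MRL/MpJ its differences were -0.10 to -0.06 and did not pass the test. With the replicate number as a block, the 1-day difference of C57BL/6 stood -0.29 from that of MRL/MpJ (edgeR adjusted p = 0.301). These strains were not shown to differ there. In C57BL/6 the 11 neutrophil markers summed to 10176 to 12993 CPM in injured and 14648 to 18115 CPM in uninjured joints at 1-day. At 2-weeks they summed to 11754 to 14825 and 15438 to 18795 CPM. Pan-leukocyte sums overlapped at 1-day only. The part of these lists in the Itgal differences was not tested.

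Whether the injury response differed between strains was tested with an interaction term, the difference of the log2 injury differences. None of 63 member tests was called, against 0.557% of all gene tests, and 9 had an unadjusted p under 0.05 by edgeR. That share is of calls, so the 9 have no share of all genes beside them. Only Itgal had an adjusted p under 0.05, in 2 tests that lay under the fold threshold. Its injury difference was higher in STR/ort than in C57BL/6 at 1-day by 0.38 ± 0.11 (adjusted p = 0.0487) and lower in STR/ort than in MRL/MpJ at 1-week by -0.52 ± 0.13 (adjusted p = 0.0402). The 1-day value did not pass with the replicate number as a block (adjusted p = 0.0736), while at 1-week the block also put the difference of STR/ort from C57BL/6 at an adjusted p of 0.0223 (-0.49), again under the fold threshold. For Itgad at 1-week, the injury difference of STR/ort stood -0.44 from that of MRL/MpJ (95% interval -0.96 to 0.07) and -0.51 from that of C57BL/6 (adjusted p = 0.456). For Icam1 at 1-day it stood 0.17 from that of MRL/MpJ (95% interval -0.12 to 0.46) and 0.25 from that of C57BL/6 (95% interval -0.03 to 0.54). For Itgad and Icam1 the strains were thus not shown to differ in their response, nor to respond alike.

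Uninjured contralateral joints were also set against 0-day joints of unloaded mice of the same strain, within batch 1. One of 42 member tests was called, against 4.94% of all gene tests. Vcam1 in STR/ort was at 197, 187, 148 and 176 CPM at 0-day and at 255, 212, 266 and 339 CPM in uninjured joints at 1-week, with no overlap and a difference of 0.63 ± 0.11 (adjusted p = 1.55e-05), where 13.8% of all genes were called. This call was lost without replicate 3 at 0-day (0.55) or replicate 4 at 1-week (0.49), and under every setting that used housekeeping genes, at 0.54 with scaling to them and at 0.31 (adjusted p = 0.13) and 0.30 (adjusted p = 0.149) with 1 and 2 RUVg factors. At 1-day in the same strain, Vcam1 differed by 0.52 (adjusted p = 0.000183), Itgax by 0.49 (adjusted p = 0.00393) and Itgam by 0.37 (adjusted p = 0.00166), all under the fold threshold. The size of the Vcam1 difference between contralateral and 0-day STR/ort joints thus depended on the scaling, as low as 0.15 at 1-day over the alternatives, and strain differences of Vcam1 in uninjured joints of later times were called or not depending on the scaling. With 2 RUVg factors, STR/ort was called lower than MRL/MpJ in uninjured joints at 1-day (-0.87) and at 1-week (-0.83, against -0.18 with TMM factors). Other markers moved in the comparison of uninjured STR/ort joints at 1-week with 0-day. The 10 monocyte and macrophage markers summed to 1879 to 2566 CPM at 0-day and 2898 to 3619 CPM at 1-week, with 5 called higher, and the 6 fibroblast markers to 12309 to 14681 CPM and 16900 to 34807 CPM, with all 6 called higher. Muscle markers went the other way, the 6 summing to 66717 to 74440 CPM at 0-day and to 24505 to 47926 CPM in uninjured joints at 1-week, with all 6 called lower, and the part of these lists in the Vcam1 difference was not tested.

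The genes that act with beta-2 integrins were read from lists. Of 13 genes that activate integrins from inside the cell, 1 was called higher and 1 lower in STR/ort than in MRL/MpJ at 0-day, namely Cytip (0.61) and Apbb1ip (-0.60), the gene of the adaptor RIAM that brings talin to integrins. In that comparison 14.8% of all genes were called. In injured joints at 1-week 3 of 13 were called as lower in STR/ort against C57BL/6 and 2 of 13 against MRL/MpJ, where 25.1% and 29.5% of all genes were called in either direction, led by the adaptor gene Skap1 (-1.28 and -0.88) and by Apbb1ip (-0.71 and -0.71). Of 13 genes of the signalling that follows ligand binding, in these joints 4 were called as lower in STR/ort against C57BL/6 and 2 against MRL/MpJ, among them the leukocyte PI3-kinase subunit genes Pik3cd (-0.78 and -0.61) and Pik3cg (-0.64 and -0.62). After injury in STR/ort at 1-week, 1 of 13 activators was called lower, Rasgrp2 (-0.65), which activates Rap1, and 1 of 13 signalling genes, Pik3cg (-0.61). There 9.21% of all genes were called. No gene of either list was called after injury at 1-day in any strain. The median log2 difference of STR/ort from MRL/MpJ in injured joints at 1-week was -0.45 for the activators and -0.26 for the signalling genes, against -0.01 over all genes.

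Further adhesion genes were read in the same way. Itga5, the alpha chain of the fibronectin receptor, rose after injury at 1-day by 0.88 in MRL/MpJ, 1.06 in C57BL/6 and 0.88 in STR/ort, and at 1-week by 0.62, 0.88 and 1.14. Itga4, the alpha chain of the VCAM-1 receptor VLA-4, was lower in injured STR/ort joints at 1-week, by -1.0 from C57BL/6 and -0.94 from MRL/MpJ. Of 8 further beta-2 ligand genes tested, Thy1, also a marker of fibroblasts and T cells, rose after injury at 1-week by 1.18 in MRL/MpJ, 1.26 in C57BL/6 and 0.87 in STR/ort. Icam4, an adhesion gene of red cell precursors, fell in the last of these comparisons, by -0.79 (adjusted p = 0.0197). Of 10 selectin and transmigration genes, 2 rose after injury at 1-day in STR/ort, the endothelial selectins Sele (1.02 ± 0.19, adjusted p = 0.00032) and Selp (0.90 ± 0.10, adjusted p = 1.97e-07), in the joints where Icam1 was highest. In that comparison 4.31% of all genes were called. In injured joints at 1-week, 5 of these 10 genes were higher and 1 lower in STR/ort than in MRL/MpJ, with Sele at 1.60 and Selp at 0.91. There 29.5% of all genes were called in either direction.

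Genes with a like pattern were taken by Pearson's r of group means of log2 CPM over the 21 groups, among 14417 genes. For Itgad they were Ccr3 (r = 0.987), Tspo2 (0.985) and Sord (0.979), and for Itgam they were Apobr (0.983), Lcp1 (0.977) and Ercc6l (0.976). For the beta chain Itgb2 they were Ncf1 (0.959), Was (0.952) and Ptpn7 (0.925). Itgal was nearest to Hmha1 (0.958), Adrbk1 (0.957) and Parp10 (0.951), and Itgax to Abcg1 (0.952), Mutyh (0.917) and Arhgap26 (0.896). Icam1 was nearest to Eps8 (0.957), Copb1 (0.955) and Hsd17b12 (0.955), and Vcam1 to Kif2a (0.968), Rdh12 (0.943) and Dbf4 (0.940). Among the members r was 0.860 for Itgam with Itgad, 0.852 for Itgam with Vcam1 and 0.820 for Itgam with Itgb2, against -0.600 for Itgam with Itgax and -0.684 for Itgal with Icam1. These 21 points share strain, time and batch, and r is given as a description only.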

How the data were processed

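RNA of whole knee joints was sequenced by the authors from poly(A)-selected libraries. Per the labels and the methods, reads were aligned to mm10 with TopHat2 2.0.11 and counted on RefSeq genes with featureCounts, and the deposited table holds raw counts per gene. Whether strand was used is not stated in the sources used here, and neither are separate cultures or pools. Of 17313 rows, 3 repeats of a symbol were dropped. A minimum of 2 counts in 5 or more libraries, the study's own, took out 0 genes, and 17310 were tested. Library totals ranged from 6182016 to 20986027, which leaves counting error largest for Itgad, Itgax and Icam1. No 2 libraries of a group held identical values (0 of 190 pairs).

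The members and gene lists were chosen with earlier results of these data known. The text names all 7 members, Ptprc, at most 2 called genes of a list in a comparison by absolute log2 difference, and the 3 nearest genes of each member. Cox6a2 was added because it overlaps Itgad.

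CPM used TMM-scaled library sizes. edgeR 4.0.16 in R 4.3.3 fitted 1 mean per strain and joint at each time, with quasi-likelihood tests and Benjamini-Hochberg adjustment over all genes. SE was the absolute log2 difference over the square root of F. The contralateral comparison used the 40 uninjured libraries of batch 1. Ratios of alpha to beta chain used CPM plus 0.1 and exact permutation tests in SciPy 1.17.1. P-values measure the spread between libraries of a group. Alternatives were DESeq2 1.42.0, RLE size factors, no filter or edgeR's filterByExpr, scaling to 25 housekeeping genes, RUVg factors from them, a fit of the compared groups only, each library left out, and replicate blocks. The scripts were checked on simulated counts.

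Joints of the same number correlated in their deviations from group means with a median of 0.108 at 1-day, 0.162 at 1-week and 0.213 at 2-weeks. The labels name 1 mouse for both joints at 2-weeks, so the numbers pair those joints. Yet the 5 MRL/MpJ pairs of that time lay at -0.279 to 0.0824. All 4 pairs of STR/ort at 1-week lay at 0.162 to 0.370, and this correlation cannot tell whether they share a mouse. At 1-day and 1-week the joints share only a number. Motifs were searched in RefSeq promoters of GRCm38.p6.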

Additional observations from a re-analysis of the deposited data

Results flagged for a closer look

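In 15 of 147 sets of a member's values in 1 group, 1 library lay far from the others by Dixon's criterion, which chance meets in about 1 in 20 sets. The injured MRL/MpJ joint of replicate 4 at 2-weeks, whose muscle markers were highest, was low for 4 members, with Itgam at 304.0 CPM, Itgax at 4.41 CPM, Itgal at 76.4 CPM and Itgb2 at 220.5 CPM. The injured STR/ort joint of replicate 2 at 1-day was high for Icam1 at 46.7 CPM and for Itgal at 91.7 CPM. At 0-day, C57BL/6 replicate 4 was low for Itgax at 6.87 CPM, C57BL/6 replicate 1 was high for Itgb2 at 371.4 CPM and MRL/MpJ replicate 3 was low for Icam1 at 11.5 CPM. Among the 1-day joints, Itgam stood out at 631.0 CPM in uninjured MRL/MpJ replicate 3, Itgax at 5.31 CPM in uninjured MRL/MpJ replicate 2, Itgb2 at 300.1 CPM in injured STR/ort replicate 5 and Vcam1 at 190.7 CPM in uninjured C57BL/6 replicate 1. At 1-week, Itgal stood out at 61.1 CPM in injured MRL/MpJ replicate 3 and Icam1 at 22.1 CPM in uninjured C57BL/6 replicate 5.

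The injury difference of Itgal differed between strains by the interaction test, by 0.38 ± 0.11 (SE, edgeR adjusted p = 0.0487) between STR/ort and C57BL/6 at 1-day and by -0.52 ± 0.13 (SE, edgeR adjusted p = 0.0402) between STR/ort and MRL/MpJ at 1-week, both under the fold threshold. The 1-day value did not pass with the replicate block (adjusted p = 0.0736).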

How the results depend on the processing

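Of the 40 called member differences, none reversed under any alternative, and of the recomputed values 291 kept the call and 33 lost it, 9 with 1 RUVg factor, 10 with 2 RUVg factors and 9 with housekeeping gene scaling. Of 2448 recomputed values of differences not called, 38 became calls and 103 had the other sign. Injury in C57BL/6 gave 1 call with 2 RUVg factors in place of 0. Injury in STR/ort gave 1 call with 2 RUVg factors, 1 with housekeeping gene scaling and 3 when only the libraries compared were fitted, in place of 2. The comparison of contralateral with 0-day joints gave 0 calls with 1 or 2 RUVg factors and with housekeeping gene scaling, in place of 1. The 48 ratio tests became 36 with Ptprc as the reference and 49 with a pseudocount of 1. With 1 library left out, calls numbered 5 to 6 at 0-day, 17 to 20 within injured joints, 12 to 14 within uninjured joints, 0 to 1 for injury in C57BL/6, 1 to 3 for injury in STR/ort, 0 to 1 for the interaction (1 without replicate 2 of the uninjured STR/ort joints at 1-week), 0 to 2 for contralateral against 0-day joints (2 without replicate 1 of STR/ort at 0-day) and 38 to 50 for the ratios. The replicate block kept both calls of injury in STR/ort at 1-week, Itgal at -0.64 (adjusted p = 1.54e-05) and Itgad at -0.74 (adjusted p = 0.0063), and the pairing changed no other call. The labels do not say whether that block joins joints of 1 mouse at 1-week. Under the block the Itgal interaction at 1-day had an adjusted p of 0.0736. The RUVg factors varied with strain, which explained 47.5% of the first factor's variance at 0-day, 77.6% at 1-day, 83.0% at 1-week and 18.8% at 2-weeks, and 65.8% of the second factor's at 2-weeks, so these settings are not independent of strain, and they made some strain differences smaller and others larger. Over all genes, the largest change was in STR/ort contralateral joints at 1-day against 0-day, from 1736 calls to 102 with 1 RUVg factor and 88 with 2. Housekeeping gene scaling changed the calls of injured STR/ort against MRL/MpJ joints at 1-day from 1764 higher and 1742 lower to 1099 and 2686, and moved the median of all genes to between -0.17 and 0.10. Calls near the fold threshold and low counts of Itgad and Itgax limit these results.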
